A study of Mus musculus with 12 samples.

Results

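The genes described here are those of the cytosolic ribosomal proteins, the proteins of the large subunit (Rpl genes) and the small subunit (Rps genes) of the ribosome that translates nuclear messages. They were chosen by gene name, with a mean expected count of at least 100 over the 12 libraries, and 79 of the 38924 rows of the tables met that rule. One of the 79 rows was set aside: the row named Rpl24 carries an identifier that GENCODE M21 gives to Zbtb11, a neighbouring zinc finger gene. The remaining 78 genes, 47 of the large subunit and 31 of the small one, are the members. The gene that GENCODE M21 calls Rpl24 is listed in capitals, as RPL24, at a mean count of 4386, and its values are given beside theirs.

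Ribosomal proteins are mostly needed in equal numbers for each new ribosome, and their mRNAs are usually abundant. Many of these mRNAs start with a C followed by a run of pyrimidines, the 5′ terminal oligopyrimidine (TOP) motif, through which mTORC1 and Larp1 set their translation. The coding sequences have also been copied into the genome many times as processed pseudogenes, which lack introns.

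Whole spinal cord RNA of mice aged 8 weeks on the B6J.Cg background was measured by polyA RNA-seq in 12 libraries. The study asks what the C201R change in Gars, which encodes glycyl-tRNA synthetase, does to the transcriptome. Samples titled C201R carry the genotype tag C201R+/- and samples titled WT carry C201R+/+, and each titled genotype has 3 libraries titled female and 3 titled male. All groups share age, background and tissue, and the change lies in the mouse's own gene, so no promoter or Cre limits it to a cell type.

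The genotype in the title and the genotype in the library name disagree in 4 libraries. Libraries 1, 2, 3 and 10 are C201R by both labels and libraries 5, 6, 7 and 8 are WT by both. Libraries 4 and 9 are named C201R and titled WT, and libraries 11 and 12 are named WT and titled C201R. Each comparison is therefore given by library name (1 to 4, 9 and 10 against 5 to 8, 11 and 12), by title, and in the 8 libraries on which the labels agree. Xist was against the titled sex in 6 of the 12 libraries, and the fits below use titled sex as a term. That term thus follows the label and not Xist, and fits without it were also made. Total expected counts per library were between 27175421 and 38271405. Markers of the labelled tissue were present in each library: the 4 neuronal markers summed to between 3843 and 4569 CPM (counts scaled to library size), and the 4 oligodendrocyte markers to between 24192 and 29197 CPM. The 2 liver markers summed to 0.444 to 1.46 CPM. The mitochondrial message mt-Atp8 split the libraries, at 1563 to 1970 CPM in libraries 1, 2, 3, 5, 7 and 8 and at 570 to 828 CPM in libraries 4, 6 and 9 to 12.

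Many members share stretches of coding sequence with other rows, as in the pair shown here. Rpl10, an X-linked gene whose protein joins the large subunit late in its assembly, and Rpl10-ps3 have the same coding sequence over all 642 bases. The first 90 bases of each are shown in lower case, with no capitals because no base differs (GRCm38, GENCODE M21; Rpl10 at chrX:74270812-74273135, plus strand, and Rpl10-ps3 at chr9:50344201-50344968, minus strand).
Rpl10: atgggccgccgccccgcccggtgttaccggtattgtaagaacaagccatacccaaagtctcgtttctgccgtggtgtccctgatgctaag
Rpl10-ps3: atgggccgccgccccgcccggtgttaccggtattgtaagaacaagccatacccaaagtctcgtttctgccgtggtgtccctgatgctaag
A read of 75 bases from any part of that coding sequence fits both rows. The Rpl10 row held 15.9% of the counts summed over Rpl10 and its copies.

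Such copies took a large share of the counts. A row was taken as near-identical to a member when its transcripts shared at least 50 words of 75 bases with the member's coding transcripts in GENCODE M21. By this measure 66 of the 78 members had at least 1 such row and 289 rows were found. They held 59807 counts per library on average, or 16.6% of the counts of members and copies together. In 55 members the gene's own row kept at least 95% of the sum. In 14 members it held less than 50%.

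Those 14 include proteins of both subunits. Rps6, the small subunit protein phosphorylated by S6 kinase, held 3.47% of its sum in its own row, with a mean of 260 counts, against 7231 counts in Rps6-ps4. Rps13 held 6.76%, Rpl31 6.97%, Rpl12 7.52% and Rpl27 8.30%. Rpl5, which with Rpl11 carries 5S rRNA and can bind Mdm2, held 8.40% of its sum, with 5526 counts in Gm15500. Of the 14 members, 12 had a copy with an identical coding sequence, taking the longest annotated coding sequence of the gene. The exceptions were Rpl31 and Rps12, whose most counted copies matched over unbroken runs of 346 and 384 bases. Of the 55 members with at least 95% in their own row, 1 had a copy of identical coding sequence, and of the 9 members in between, 2 did. The copies were found by shared sequence, so these counts describe how the deposited counts were divided and are not a test.

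**Figure D1:**
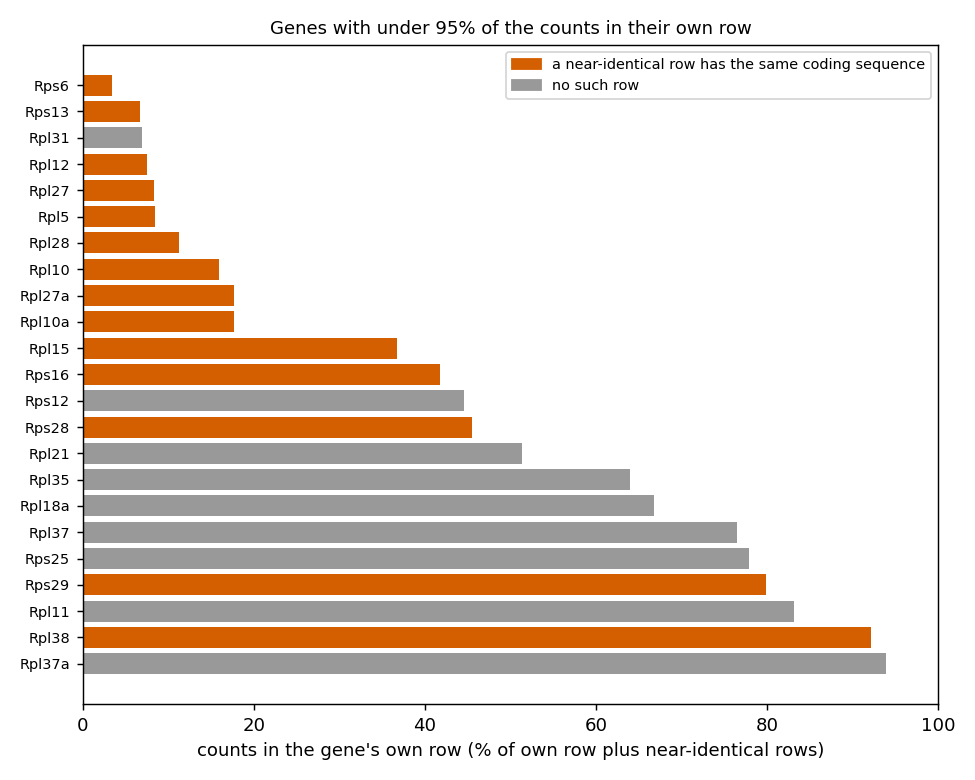
Counts in the gene's own row as a percentage of the counts in that row plus its near-identical rows, mean of 12 libraries, for the 23 members under 95%. Rps6 is lowest at 3.47% and 14 bars end below 50%; dark bars mark members with a copy of identical coding sequence.

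One ribosomal protein gene had no count of its own. Rps27 was listed at 0 in every library, and Gm9846, which shares its transcript sequence and is named Rps27rt in GENCODE M21, had a mean of 2684 counts. It was left out of the members for that reason, with the other 7 names that matched the pattern below a mean of 100: Rpl3l, Rps12l1, Rps3a2, Rps3a3, Rpl39l, Rpl10l and Rps12l2. The nearest to the limit were Rps13 inside it, at 187 counts, and Rpl3l outside it, at 94.0 counts. The near-identical rows of Rps13 held 2578 counts.

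The order of the levels differed with the division. On the deposited TPM scale, which is per length, the highest members by own row were Rpl13a at 1242 ± 68.5 TPM, Rplp1, a protein of the stalk that binds elongation factors, at 1177 ± 44.2 TPM, and Rpl23a at 992 ± 61.5 TPM (SD, n = 12). Rps24 followed at 988 ± 68.0 TPM and Rps15 at 883 ± 55.6 TPM. Rpl13a and Rplp1 lay within 1 SD of each other, and so did Rpl23a and Rps24. The lowest members by own row were Rps13 at 25.3 ± 2.52 TPM, Rpl27 at 23.0 ± 2.54 TPM, Rpl12 at 20.4 ± 1.90 TPM, Rps6 at 19.6 ± 3.77 TPM and Rpl31 at 18.8 ± 2.21 TPM. These 5 are all among the 14 members with most counts elsewhere, and with copies added they had 431, 426, 403, 657 and 856 TPM. Rpl31 thus stood 78th by own row and 8th with its copies. The 90th percentile of the members was 16.6 times the 10th percentile by own row and 3.24 times with copies added. Members with copies added had a median of 469 TPM.

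With copies added, the lowest members were paralogs and a few others. Rpl7l1, a paralog of Rpl7, had 26.0 ± 1.87 TPM, and Rps27l, the paralog of Rps27 and a p53 target, had 55.0 ± 3.10 TPM (SD, n = 12). Rps23, of the decoding centre, had 147 ± 10.9 TPM, Rpl22l1 163 ± 11.4 TPM and Rpl22 236 ± 12.5 TPM. The paralog pairs differed in how lopsided they were. Mean TPM of Rpl7 was 14.7 times that of Rpl7l1 (13.7 to 16.5 over the libraries), while that of Rpl22 was 1.46 times that of Rpl22l1 (1.26 to 1.65). Gm9846 had 14.6 times the TPM of Rps27l. Rps4x, on the X chromosome, had 9.23 times the TPM of the row named Rps4y2, which GENCODE M21 calls Rps4l. Rpl10l and Rpl39l, known from testis, had means of 0.0833 and 0.667 counts, against 945 counts for the Rpl10 row and 2011 for Rpl39.

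Rpl3l, a paralog of Rpl3 made in striated muscle, ranged from 0.33 to 8.91 CPM between libraries. The 4 skeletal muscle markers summed to 10.1 to 1814 CPM over the libraries. Library 3 was highest for both, and the part of muscle RNA in the Rpl3l counts was not tested. Rpl3 itself stayed within 377 to 412 CPM.

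Between libraries the members varied little. The ratio of the highest to the lowest of the 12 libraries had a median of 1.14 over the 78 own rows, with the largest value in Rps6 (1.88), then Rpl10 (1.82) and Rps12 (1.69). With copies added the median was 1.13 and the largest value 1.25, in Rps23. Rps6 then spanned 1.13 times and Rpl10 1.10 times. The most even member was Rpl15, of the large subunit, with a coefficient of variation of 1.79% with copies added, against 7.03% in its own row. Over 10287 other tested genes at or above the lowest member's level (10.4 CPM) the median span was 1.19. These genes share only that lower limit and were not matched to the members in level.

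The members moved up and down together from library to library. Their summed level by own row was 9635, 8986, 9089, 9724, 9606 and 9592 CPM in libraries 1, 2, 3, 4, 9 and 10, named C201R. It was 9256, 9624, 9245, 9209, 9559 and 9449 CPM in libraries 5, 6, 7, 8, 11 and 12, named WT. Both groups hold low and high libraries and the groups overlap. With copies added, 5 of the 78 members were above their own median in library 2 and 7 were in library 3, against 11 to 18 in the WT libraries 5, 7 and 8. In the other 7 libraries 39 to 68 members were above it, with 68 in library 4. The same count was not made over all genes, so it does not set the members apart from them. The low libraries 2, 3, 5, 7 and 8 are 5 of the 6 with high mt-Atp8, and library 1 has high mt-Atp8 with 60 members above their median. The 2 lowest libraries also stood apart in markers of other tissues. Red cell markers summed to 2995 CPM in library 2 and to 446 to 1529 CPM in the others. Fat markers summed to 99.0 CPM in library 3 and to 0.235 to 6.32 CPM in the others, and skeletal muscle markers were highest there, at 1814 CPM. The part of these markers in the members' levels was not tested. Within the libraries of high mt-Atp8 the summed level of own rows was 8986 to 9635 CPM in those named C201R and 9209 to 9256 CPM in those named WT. Within those of low mt-Atp8 it was 9592 to 9724 CPM in those named C201R and 9449 to 9624 CPM in those named WT. Which library was made with which of the 2 kits named in the protocol is not given in the sources used here.

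**Figure D2:**
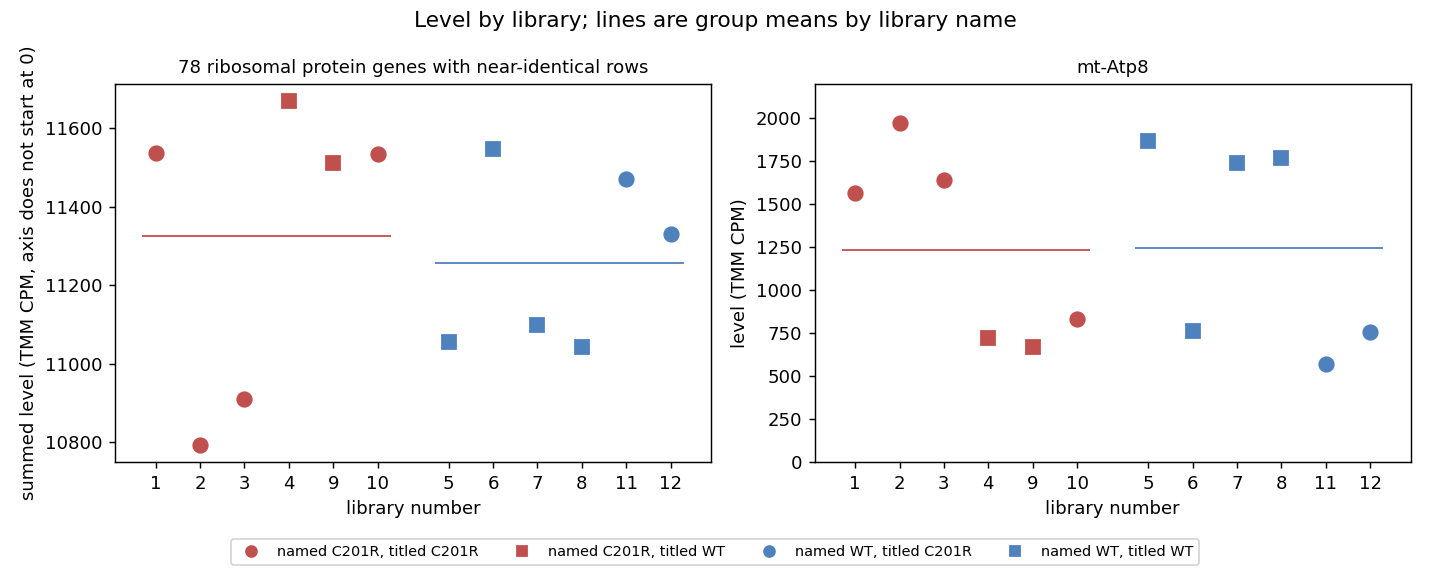
Summed level of the 78 genes with their near-identical rows (left) and level of mt-Atp8 (right), in TMM-scaled CPM, with 1 point per library and lines at the means of the libraries named C201R (left side) and WT (right side). Sums lie between 10794 CPM in library 2 and 11671 CPM in library 4, and low sums occur in both genotypes.

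**Figure D3:**
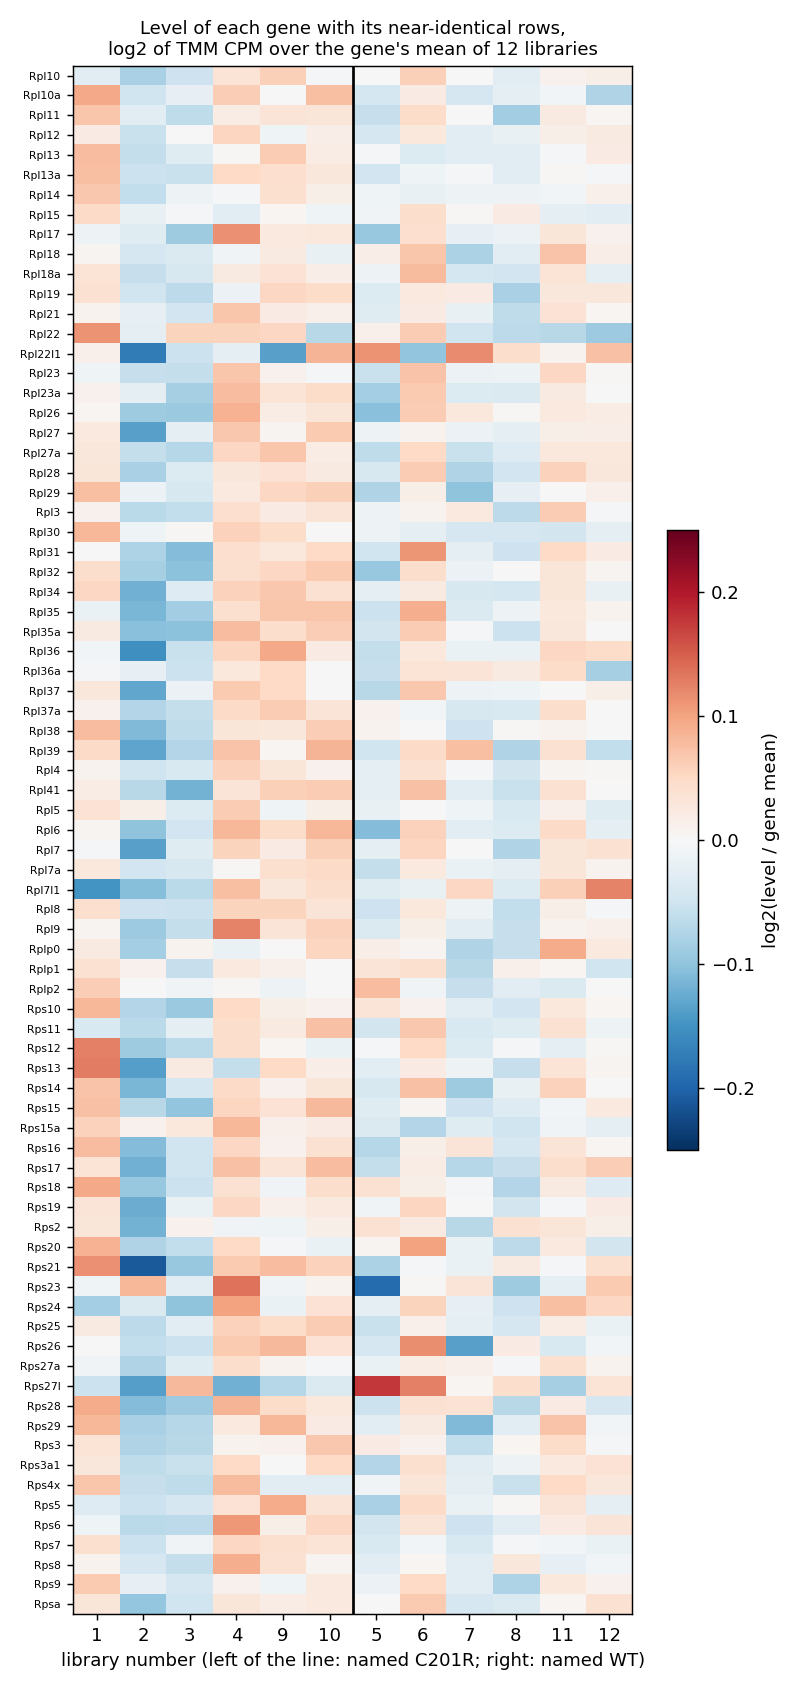
Level of each of the 78 genes, with its near-identical rows, relative to its own mean over 12 libraries (log2 of CPM over mean; blue low, red high), with libraries named C201R left of the line and those named WT right of it. Libraries 2 and 3 are blue down nearly the whole column, with 5 and 7 members above their median, and library 4 is red, with 68.

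By library name, no member passed edgeR's test between C201R and WT, and DESeq2 called 1. Of 17765 genes tested with edgeR's quasi-likelihood test, 127 passed an adjusted p of 0.05 (0.715%), and 0 of the 78 members did. At an unadjusted p under 0.05 there were 5 members (6.41%), all higher in C201R, against 12.8% of all genes in either direction and 5.98% higher. The DESeq2 call was Rps15a, where DESeq2 called 2.29% of the genes to which it gave an adjusted p. The members' log2 differences were small, with a median of 0.023 (1.02-fold), against 0.0023 over all genes. In 66 of the 78 the fitted difference was above 0, where 50.9% of all genes were. Of the 47 large subunit genes 39 were above 0 and of the 31 small subunit genes 27 were. The fit bounds most members closely: the 95% interval lay within 0.25 of 0 on the log2 scale for 72 members, against 55.7% of all genes, and for 78 with copies added, against 55.8% of all genes counted that way. The median standard error of the members was 0.033.

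Rps15a, a small subunit protein, had the lowest p. Its level ran from 135 CPM through a median of 136 to 142 CPM in C201R, and from 127 CPM through 131 to 133 CPM in WT. Every C201R library was above every WT library. The means were 137 ± 2.76 CPM in C201R libraries, against 131 ± 2.11 CPM in WT libraries (SD, n = 6 each), and the fitted log2 difference was 0.08 ± 0.02 (SE), which did not pass (edgeR adjusted p = 0.119). Under the other settings the adjusted p of Rps15a lay between 0.0305 and 0.468, the lowest from DESeq2.

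Rpl30, a large subunit protein, was the other member whose groups did not overlap, at 91.3, 94.2 and 95.9 CPM (lowest, median and highest) in C201R and 89.3, 89.5 and 90.9 CPM in WT. The log2 difference was 0.08 ± 0.02 (edgeR adjusted p = 0.132). Groups that do not overlap were found in 2 of the 78 members, both higher in C201R, and in 1.64% of all genes, 0.585% higher. Rps15a and Rpl30 keep 99.9% and 98.2% of their counts in their own rows.

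Rps16 had the largest fitted difference above 0 among the members, which did not pass and was near 0 with its copies added. Its own row had 36.2 ± 3.15 CPM in C201R libraries, against 32.5 ± 2.19 CPM in WT libraries (log2 difference 0.19 ± 0.06, edgeR adjusted p = 0.182). Its copy Rps16-ps2, identical over the coding sequence, had 46.6 ± 5.21 CPM in C201R libraries, against 49.7 ± 4.12 CPM in WT libraries. Summed over the copies the log2 difference of Rps16 was 0.02 ± 0.03 (edgeR adjusted p = 0.835). Rpl22 followed at 90.3 ± 4.06 CPM in C201R libraries, against 86.5 ± 3.57 CPM in WT libraries (log2 difference 0.08 ± 0.03, edgeR adjusted p = 0.337). Rpl29 had 98.4 ± 3.16 CPM in C201R libraries, against 94.8 ± 3.25 CPM in WT libraries (log2 difference 0.07 ± 0.03, edgeR adjusted p = 0.360). The member of next lowest p was Rps27l, lower in C201R at 9.98 ± 0.547 CPM, against 10.7 ± 0.678 CPM in WT libraries (log2 difference -0.11 ± 0.06, edgeR adjusted p = 0.488). The lowest fitted difference was that of the Rps6 row, at -0.21 ± 0.15, and with copies added it was 0.03 ± 0.03 (edgeR adjusted p = 0.739).

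By title no member passed with edgeR and 1 did with DESeq2, and more of the small fitted differences were below 0 than above it. None of the 17765 genes passed with edgeR (0%), with 6.77% at an unadjusted p under 0.05, and 1 of the 78 members was at such a p, Rpl10. The DESeq2 call was Rpl10, where DESeq2 called 0.117% of the genes to which it gave an adjusted p. The fitted difference was above 0 in 28 of the 78, where 50.7% of all genes were, with a median of -0.011 in the members and 0.0012 over all genes. With limma on log2(TPM + 1) it was above 0 in 60 of the 78, and without libraries 1, 2 and 3 in 54. The count of members above 0 by title thus differed between settings. The 95% interval again lay within 0.25 of 0 for 72 members by own row, against 59.5% of all genes, and for 78 with copies added, against 59.6%.

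Rpl10 had the lowest p by title, in its own row. The Rpl10 row had 21.2, 25.2 and 30.2 CPM (lowest, median and highest) in C201R and 29.4, 32.8 and 38.8 CPM in WT. The highest C201R library reached above the lowest WT libraries. The means were 25.6 ± 3.10 CPM in C201R libraries, against 33.6 ± 4.53 CPM in WT libraries (SD, n = 6 each), and the fitted log2 difference was -0.40 ± 0.08 (edgeR adjusted p = 0.542). Rpl10-ps3, with the same coding sequence, had 158 ± 2.40 CPM in C201R libraries, against 155 ± 3.62 CPM in WT libraries (log2 difference 0.02 ± 0.02, edgeR adjusted p = 0.910). Over Rpl10 and its copies the level was 184 ± 4.80 CPM in C201R libraries, against 189 ± 4.70 CPM in WT libraries, a log2 difference of -0.04 ± 0.02 (edgeR adjusted p = 0.792). The DESeq2 call of Rpl10 is thus of a row that holds 15.9% of the counts of this sequence.

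**Figure D4:**
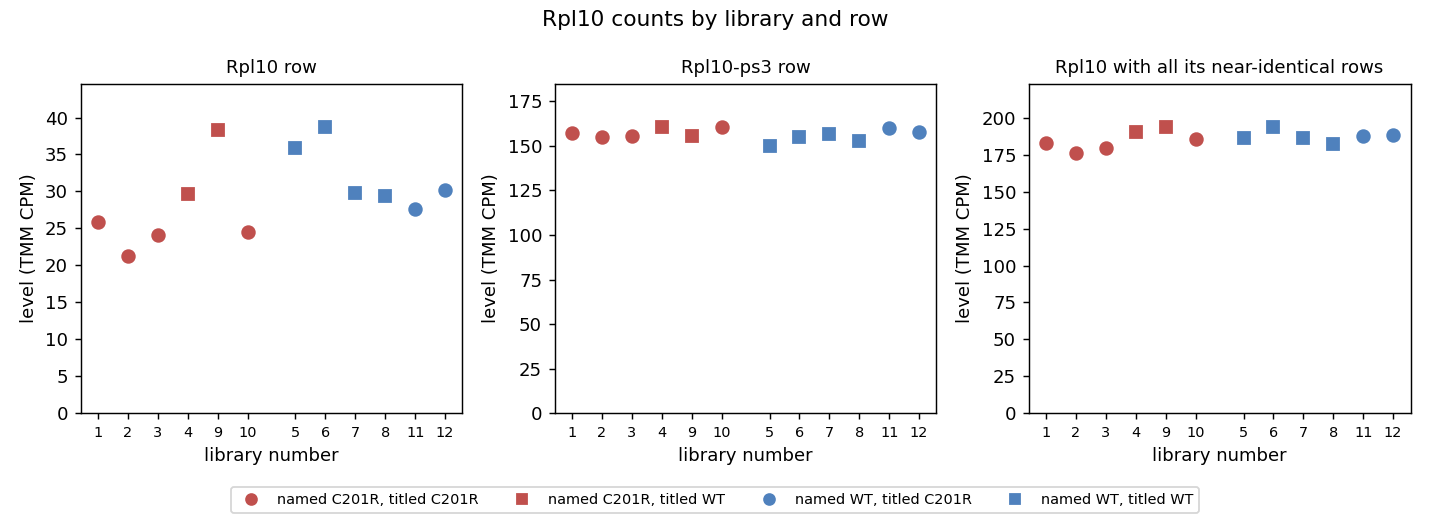
Level in TMM-scaled CPM of the Rpl10 row, the Rpl10-ps3 row and Rpl10 with all its near-identical rows, 1 point per library, with libraries named C201R left and those named WT right, and circles for titled C201R. The own row spans 21.2 to 38.8 CPM while the sum spans 176 to 194 CPM.

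The other members of low p by title were fitted as follows. The Rps6 row had 7.45 ± 1.60 CPM in C201R libraries, against 8.92 ± 1.16 CPM in WT libraries (log2 difference -0.26 ± 0.14, edgeR adjusted p = 0.771), and with copies added its log2 difference was -0.01 ± 0.03 (edgeR adjusted p = 0.978). Rps16 had a log2 difference of 0.12 ± 0.07, Rpl21 of -0.04 ± 0.03, Rplp0 of 0.04 ± 0.03 and Rps28 of 0.07 ± 0.05, with edgeR adjusted p between 0.786 and 0.855. The sign turned for Rps28 with copies added (-0.031) and for Rps16 without libraries 1, 2 and 3 (-0.010). Rplp0 is the base of the stalk and a common reference gene in quantitative PCR, at 171 ± 7.02 CPM in C201R libraries, against 167 ± 4.29 CPM in WT libraries.

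In the 8 libraries with matching labels, 29 of 17765 genes passed (0.163%) and 0 of the 78 members did. At an unadjusted p under 0.05 there were 3 members higher and 1 lower in C201R (5.13%), against 6.01% of all genes higher, 6.96% lower and 13% in either direction. The fitted difference was above 0 in 54 of the 78, with a median of 0.013, where 52.1% of all genes were. With no sex term, or with an mt-Atp8 term in its place (high or low, split at 1200 CPM), 35 were above 0. Without library 10 there were 33. The medians were -0.0026, -0.0028 and -0.0042, in that order. Rpl10 came nearest to a call. Its own row had 25.9, 21.2, 24.1 and 24.6 CPM in C201R libraries 1, 2, 3 and 10, and 35.9, 38.8, 29.7 and 29.4 CPM in WT libraries 5, 6, 7 and 8. All 4 C201R libraries were below all 4 WT libraries, as in 4.58% of all genes, with 8.42% apart in either direction. The log2 difference was -0.41 ± 0.06 (edgeR adjusted p = 0.0616). It passed in 5 of 22 other settings, among them DESeq2 (adjusted p = 0.000145, where 1.66% of genes passed), the fit with the mt-Atp8 term (edgeR adjusted p = 0.0477, where 1.19% passed) and the fit without library 10 (edgeR adjusted p = 0.0382). With copies added it was -0.04 ± 0.03 (edgeR adjusted p = 0.676), from 183, 176, 180 and 186 CPM in C201R and 187, 194, 186 and 183 CPM in WT, which overlap.

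Rps16, Rps15a, Rpl30, Rpl29 and Rps28 were the next members in those 8 libraries. Their log2 differences were 0.24 ± 0.08, 0.08 ± 0.03, 0.06 ± 0.03, 0.08 ± 0.04 and 0.11 ± 0.06, with edgeR adjusted p between 0.254 and 0.453. With copies added the log2 difference of Rps16 was 0.02 ± 0.05 (edgeR adjusted p = 0.924). Rps15a had 139, 135, 136 and 136 CPM in C201R libraries 1, 2, 3 and 10 and 131, 127, 131 and 129 CPM in WT libraries 5 to 8. Its groups did not overlap there either (3.84% of all genes were so higher), on libraries that are part of the comparison by name.

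**Figure D5:**
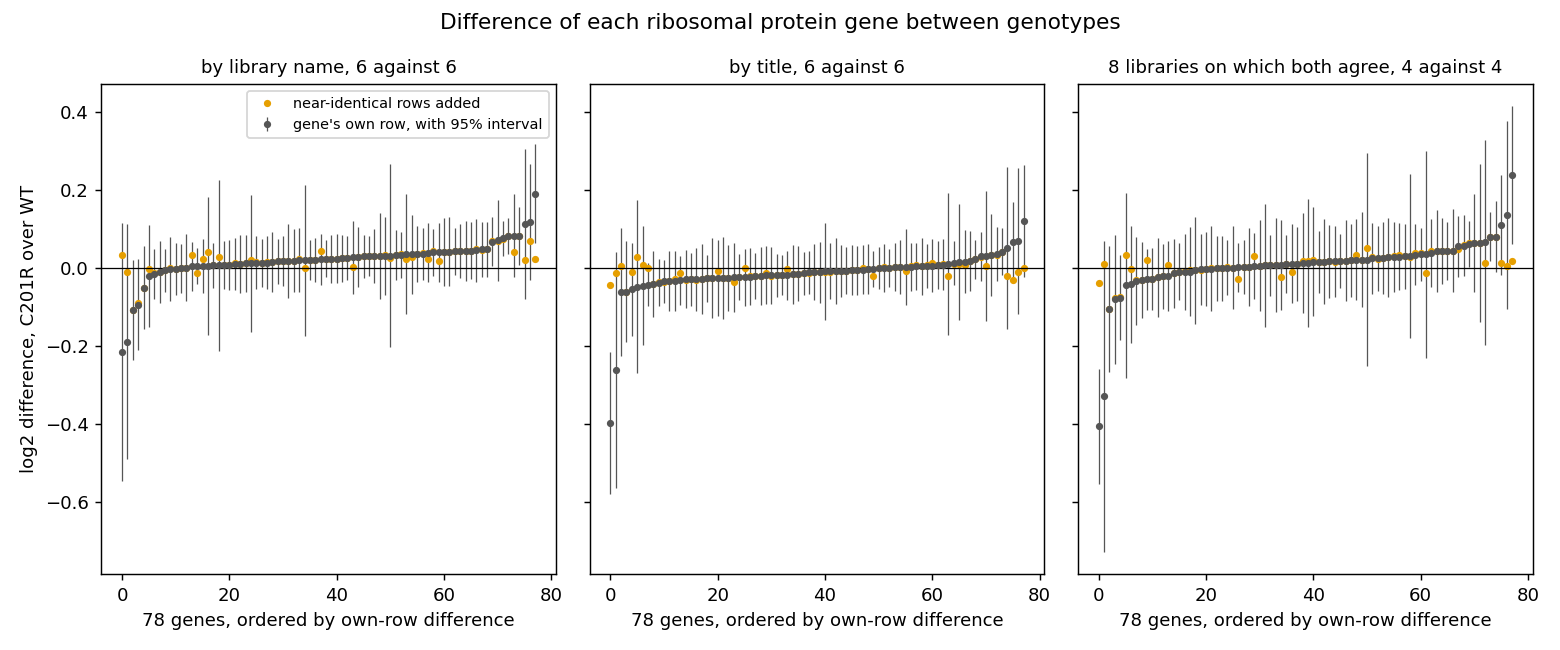
Log2 difference, C201R over WT, of each of the 78 genes by library name, by title and in the 8 libraries with matching labels, with dark points and 95% intervals for the gene's own row and light points for the sum with its near-identical rows. Most intervals cross 0. Rpl10, far left at -0.40 by title, lies near 0 once copies are added. Rps27l, at -0.11 by library name, has no copies to add.

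The X-linked members were Rpl10, Rpl36a, Rpl39 and Rps4x. By library name Rpl36a had 62.6 ± 1.58 CPM in C201R libraries, against 62.5 ± 2.34 CPM in WT libraries, and Rpl39 had 63.3 ± 3.72 CPM in C201R libraries, against 63.1 ± 2.85 CPM in WT libraries (SD, n = 6 each). Rps4x had 177 ± 7.77 CPM in C201R libraries, against 177 ± 4.89 CPM in WT libraries. By title their log2 differences were -0.04 ± 0.03, -0.03 ± 0.04 and 0.00052 ± 0.023, and none passed (edgeR adjusted p between 0.858 and 0.999).

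RPL24, the row outside the name pattern, had 137 ± 3.37 CPM in C201R libraries, against 138 ± 5.01 CPM in WT libraries by library name (log2 difference -0.0091 ± 0.030, edgeR adjusted p = 0.936). The row named Rpl24, with the identifier of Zbtb11, had 55.2 ± 2.97 CPM in C201R libraries, against 60.0 ± 3.17 CPM in WT libraries (log2 difference -0.15 ± 0.03, edgeR adjusted p = 0.0697). It passed without library 4 (edgeR adjusted p = 0.0428) and with DESeq2 (adjusted p = 0.0134). Read by its name it would have been the member of lowest p by library name. Gm9846, the row near-identical to Rps27, had 86.2 ± 3.39 CPM in C201R libraries, against 82.2 ± 2.87 CPM in WT libraries (log2 difference 0.08 ± 0.03, edgeR adjusted p = 0.281).

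Genes that act with the ribosomal proteins were also without calls, with 0 of 102 tested genes passing by library name (edgeR; 0.715% of all genes passed) and 0 by title. Of 4 ribosomal proteins named outside the pattern, Fau, which encodes Rps30 fused to a ubiquitin-like protein, had the lowest p by library name, at 33.4 ± 2.84 CPM in C201R libraries, against 33.0 ± 2.36 CPM in WT libraries. Of 22 other TOP messages, Eif4b, an initiation factor, had 219 ± 4.85 CPM in C201R libraries, against 208 ± 5.12 CPM in WT libraries (log2 difference 0.07 ± 0.03, edgeR adjusted p = 0.268). Of 40 ribosome biogenesis genes, Brix1, of large subunit assembly, had 20.0 ± 1.26 CPM in C201R libraries, against 21.9 ± 0.940 CPM in WT libraries (log2 difference -0.15 ± 0.05, edgeR adjusted p = 0.206). Of 12 RNA polymerase I genes, Polr1d had 28.6 ± 0.931 CPM in C201R libraries, against 30.2 ± 1.08 CPM in WT libraries (edgeR adjusted p = 0.426). Of 19 genes of mTORC1 and TOP translation, Eif4ebp2, an inhibitor of eIF4E, had 19.9 ± 0.842 CPM in C201R libraries, against 21.3 ± 1.05 CPM in WT libraries (edgeR adjusted p = 0.249). Of 5 genes of the Mdm2 and p53 response to impaired ribosome assembly, Cdkn1a, a cell cycle inhibitor and transcriptional target of p53, had 26.7 ± 4.35 CPM in C201R libraries, against 33.8 ± 2.48 CPM in WT libraries (log2 difference -0.36 ± 0.10, edgeR adjusted p = 0.158). Median log2 differences by library name were 0.0087 in the TOP messages and -0.011 in the biogenesis genes, against 0.0023 over all genes.

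A few cell type markers passed by library name with edgeR, where 0.715% of all genes and 0 of the 78 members passed. Of the 4 motor neuron markers 2 passed, both lower in C201R. Chodl had 13.1 ± 1.21 CPM in C201R libraries, against 34.6 ± 6.52 CPM in WT libraries (log2 difference -1.41 ± 0.12, edgeR adjusted p = 0.000112). Of the 4 general neuronal markers 1 passed, Nefl, lower in C201R, and of the 4 astrocyte markers 1 passed, Slc1a3, higher. Fitted differences were above 0 in 1 of the 4 motor neuron markers, 0 of the 4 neuronal markers and 2 of the 4 astrocyte markers. The other cell type lists had no call. By title none of these lists had a call. In the 8 libraries with matching labels the motor neuron list again had 2 calls and the neuronal list 1, all lower in C201R, and the astrocyte list had none (Slc1a3, log2 difference 0.15, edgeR adjusted p = 0.211). In whole tissue, fewer cells of a type and less RNA per cell cannot be told apart, and the part of such shifts in the members' small differences was not tested. The members are mostly short, with 68 of 78 under 1000 bases of effective length. The other 2506 tested genes as short had a median log2 difference of 0.011 by library name, with 54.2% above 0, and 15181 longer genes had a median of 0.00071. A further fit put a term for high or low mt-Atp8, split at 1200 CPM, in place of titled sex. In that fit 345 genes passed by library name (1.94%) and 0 of the 78 members did.

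Start sites carried the TOP feature more often than promoters at large. RefSeq windows (GRCm38.p6) were held for 58 of the 78 members, in 69 windows of 300 bases. In 12 of them (17.4%) the annotated first base was C and the next 4 were C or T, against 2.51% of 32851 windows of all genes. A run of at least 8 C or T bases touching the 10 bases on either side of the start was in 42.0% of the members' windows, against 13.7% of all. These are matches at annotated starts on the strand that reads like the RNA, and shares of windows are given with no test. The windows below run from 15 bases before the start to 15 after, for the members of highest TPM and of lowest p by library name that have one, with the longest pyrimidine run near the start in capitals (Rpl13a at chr7:45128731-45128760, minus; Rps24 at chr14:24490663-24490692, plus; Rps15a at chr7:118116133-118116162, minus; Rps16 at chr7:28350674-28350703, plus).
Rpl13a: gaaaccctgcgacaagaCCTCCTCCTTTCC
Rps24: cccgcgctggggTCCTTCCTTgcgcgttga
Rps15a: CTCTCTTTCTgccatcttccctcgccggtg
Rps16: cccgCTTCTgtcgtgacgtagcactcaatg
Rps15a has C and 4 pyrimidines from the annotated start on, and its longer run lies upstream. Rpl13a and Rps24 have runs of 14 and 9 pyrimidines that begin within 3 bases of it, with that of Rpl13a going on past the 13 bases shown, and the run of Rps16 is 5 bases long and ends upstream. The window of Rps24 is the first of 2, and in the second the first base is A and the longest run is 2 bases. Rpl22 has 2 windows, with runs of 4 and 5 bases, and Rplp1, Rpl23a and Rpl30 are named here without one.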

How the data were processed

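Sequencing of polyA RNA from spinal cord gave paired reads of 75 bases, per the labels' protocols, and each of the 12 libraries has its own table of 38924 genes. Alignment and counting tools, per the submitters' processing notes, include Bowtie2 2.2.0 and RSEM 1.2.12. Neither genome build nor annotation is stated: not given in the sources used here. The authors deposited RSEM tables that, per the file headers, give an expected count, TPM and effective length for each gene. Other columns were not used. RSEM divides reads that fit several rows among them, which bears on every gene with near-identical copies. The deposited TPM was used for levels between genes and in alternatives, and the deposited effective length, in bases, for length.

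The members, gene lists and tests were chosen with earlier results of these data known. Genes are named by a rule: the 6 members of lowest p where fewer than 5 pass, the 5 highest and 5 lowest by TPM, paralog pairs, X-linked members, those nearest the count limit, and low-p genes of other lists. RPL24, Gm9846 and the copies named were chosen after their values were seen. Expected counts were rounded, kept by filterByExpr (17765 genes), scaled by TMM and fitted in edgeR 4.0.16 (R 4.3.3, quasi-likelihood F-test), with titled sex as a term and Benjamini-Hochberg adjustment over all genes at 0.05. CPM are TMM-scaled. A standard error is the log2 difference over the square root of its F value. IDs were matched to GENCODE M21 for 37607 rows (96.62%), whose transcripts gave the copies and coding sequences. In a further fit, each member's counts were summed with those of its copies before testing (17711 genes). Whether libraries came from separate animals is not in the labels, and p-values then measure only the spread between libraries, which may be technical. Alternatives used DESeq2 1.42.0, limma 3.58.1 and voom. The fits were tested on simulated counts with planted differences larger than the members' median difference. The simulation held no shifts shared by the members of a library, so it does not bear on small joint differences. Joins and plots used pandas 2.3.3, numpy 2.4.6 and matplotlib 3.10.9 under Python 3.11.15. Sums with copies, the mt-Atp8 term and the sums with either Rpl24 row were added after seeing the data. One sequence comparison is not reported here.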

Additional observations from a re-analysis of the deposited data

Results flagged for a closer look

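In the libraries that are WT by both labels, the summed level of the 78 ribosomal protein genes set library 6 apart, at 9624 CPM against 9209 to 9256 CPM in libraries 5, 7 and 8. The gap to the nearest of the others was 0.886 of the whole range. Library 6 also had low mt-Atp8, at 763 CPM against 1738 to 1866 CPM in libraries 5, 7 and 8. The part of that split in the sums was not tested. The own row of Rps28, a small subunit protein, had library 11 apart among the 6 named WT. It was at 31.4 CPM there against 27.0 to 28.5 CPM in the others, with a gap of 0.665 of the range. That row holds 45.5% of the counts of Rps28 and its copies. With copies added, library 11 was at 64.5 CPM, within the 60.6 to 65.2 CPM of the others named WT. In all, 2 of 72 groups checked were set apart, and chance alone sets about 1 in 20 apart.

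Counts of ribosomal protein messages also stood in rows that the comparisons of members did not use. The row named RPL24 had a mean of 4386 expected counts and Gm9846, near-identical to Rps27, had 2684.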

How the results depend on the processing

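Each comparison was refitted under 14 other settings and without each library in turn. By library name the members above 0 numbered 51 to 72 and their median log2 difference was 0.0075 to 0.057. The number of members called was 1 with DESeq2 in each of the 3 comparisons. In the 8 libraries with matching labels it was also 1 with no filter on low counts, with voom quality weights and with the mt-Atp8 term. Without single libraries it was 0 to 1 there, with 1 without library 10. The member called in those 8 libraries was each time Rpl10, by its own row, which holds 15.9% of its counts summed with copies. With copies added edgeR called no member there. Of all genes, DESeq2 called 1.66% there and the fit with the mt-Atp8 term 1.19%. That share was not counted with no filter, with voom or without library 10. By title the members above 0 numbered 17 with no filter, 60 with limma on log2(TPM + 1) and 60 on log2(TPM + 0.1), 54 without libraries 1, 2 and 3, and 15 to 40 without single libraries (18 without library 5 and 15 without library 10). In the 8 libraries they numbered 35 with no sex term and 35 with the mt-Atp8 term, and 33 to 62 without single libraries (33 without library 10). Their median there was 0.0512 and 0.0513 on the 2 TPM scales, 0.0562 with library number as a term and 0.0577 without libraries 1, 2 and 3, which leaves library 10 alone in C201R and assumes that it varies like the others. The summed level there differed by 3.05% in deposited TPM and 2.77% without libraries 1, 2 and 3, against -0.084%. The 90th over the 10th percentile of member levels was 3.24 with copies added. The members' median also lay on the other side of 0 in the 8 libraries with no sex term (-0.0026), with the mt-Atp8 term (-0.0028, and -0.0020 with copies added too), without library 5 (-0.0026) and without library 10 (-0.0042). By title, where it was -0.011, it was 0.016 on both TPM scales, 0.012 without libraries 1, 2 and 3 and 0.0021 without library 2. The summed level by title (-0.625%) was 1.42% in deposited TPM, 0.799% as a share of all counts, 0.946% without libraries 1, 2 and 3, and 0.219% and 0.0030% without libraries 2 and 3 in turn. By library name (0.517%) it was 0.463% to 2.67% over 8 other settings, with 2.55% in deposited TPM and 2.50% as a share of all counts. There it was -0.091% to 1.48% without single libraries, with -0.091% without library 4. In the 8 libraries it was 2.51% as a share of all counts, 0.072% with copies added and -1.19% to 1.13% without single libraries. Signs turned for Rps16 by title without libraries 1, 2 and 3 (-0.010), for Rps28 by title with copies added (-0.031, and -0.029 with the mt-Atp8 term too) and for Rps28 in the 8 libraries with both (-0.0051). The causes were not tested, except that copies were added by construction.

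No paired analysis was possible because no replicate number is shared between the groups. The median standard error of a member was 0.0333 by library name, 0.0334 by title and 0.0427 in the 8 libraries (log2), and this limits the smallest difference that passes. Each group holds 4 or 6 libraries, the genotype of 4 libraries depends on the label used, and the division of counts among near-identical rows was made before deposit.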
